A study of Mus musculus with 44 samples.

Results

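Synaptic and neuronal adhesion genes were followed in the ribosome-bound RNA of amygdala Crh neurons. Members were taken by symbol: genes whose name begins with Pcdh, Nrxn, Nlgn, Lrrtm, Slitrk, Cntn or Cntnap, or with Cdh and a digit. The table held 23 such genes among 8203. The mouse annotation (GENCODE release 21, build GRCm38) lists 120 protein-coding genes with such symbols, and the table kept only genes above a minimum level in all samples. The members include neurexins, 3 of 4 Lrrtm genes, 2 of 3 neuroligins, 3 of 23 cadherins, 2 of 6 contactins, 2 of 7 Cntnap genes, 2 of 6 Slitrk genes and 6 of 68 protocadherins. None of the 6 protocadherins (Pcdh7, Pcdh8, Pcdh9, Pcdh10, Pcdh17 and Pcdh19) belongs to the large Pcdh gene clusters.

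The study used adult Crh-TRAP mice of both sexes, in which Cre made in Crh-expressing cells turns on the ribosomal protein L10a fused to eGFP from the Rosa26 locus. Any cell of the punch that has ever made this Cre carries the tag. Tagged ribosomes were pulled down from bilateral amygdala punches of single mice, and their polyA RNA was sequenced. The 16 TA (tone alone) mice heard tones with the shock generator off. The 12 FC (fear conditioned) mice received tones paired with foot shock. The 16 EXT (extinction) mice were conditioned in the same way and, the next day, heard tones without shock in another context. The Cre and tag transgenes were shared by all 3 groups, and each mouse gave 1 sample.

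These genes code for membrane proteins that hold neurons together and match the 2 sides of a synapse. Neurexins sit mainly on the axon terminal and bind neuroligins and LRRTM proteins across the cleft, and Slitrk proteins bind receptor phosphatases on the terminal. Cadherins and protocadherins bind mostly to their own kind on the neighbouring cell. Contactins are anchored in the membrane by a lipid and often pair with the caspr proteins encoded by the Cntnap genes.

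Values are log2 cpm, read counts scaled to a common library size, and a difference of 1 on this scale is a doubling. Effective library sizes ran from 12802113 to 20440351 reads, with group medians of 18015590 in TA, 16977973 in FC and 15412341 in EXT. A member gene had 57 to 4228 reads in a library, with a median of 687. The samples carry 5 batch labels, and batches 3 and 4 held EXT mice alone (5 and 1). With batches entered as categories, the EXT vs TA and EXT vs FC estimates therefore rest on the 10 EXT mice of batches 1, 2 and 5. The interactions of sex with EXT also draw on batch 3, which held EXT mice of both sexes (2 females and 3 males). The sex labels could be checked only weakly, since genes made in 1 sex alone cannot pass a minimum level in all samples. At Ddx3x, an X-linked gene with higher output in females, 4 of 18 labelled females lay above all 26 males, with means of 6.51 and 6.17 log2 cpm. The X-linked genes Eif2s3x and Kdm5c were also higher in labelled females, by 0.22 and 0.26, with 3 and 4 females above all males. Markers of other cells were present: 9 of 9 astrocyte, 10 of 11 oligodendrocyte and 4 of 11 choroid plexus markers were measured, but 0 of 6 endothelial markers and 1 of 8 microglial markers, with Cx3cr1 and Csf1r not in the table. Of the central amygdala and GABA neuron markers, 12 of 13 were measured, including Crh, Gad1 and Gad2, and Slc32a1 was not. In bulk RNA, fewer cells of a type and less RNA per cell cannot be told apart.

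Levels were set side by side per kilobase of exon, since longer genes collect more reads. Lrrtm1, which codes for a postsynaptic neurexin ligand, had the highest level at 4.30 ± 0.36 on the log2 scale (cpm per kb, SD, n = 44), the 63.8th percentile of the 8023 annotated genes. Lrrtm3 followed at 4.00 ± 0.31 and Cdh22 at 3.75 ± 0.45. The lowest were Nrxn2 at 0.50 ± 0.55, Cntnap5a at 0.40 ± 0.69 and Cntn2 at 0.36 ± 0.68. Members were thus mostly modest in level, with a median of 2.34 against 3.58 over all annotated genes.

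Neighbours in this order lay close to each other, set against the spread between mice. In 21 of 22 steps the mean difference between adjacent genes was smaller than its own SD between mice. This compares with the spread of single mice and does not test whether the means differ. The spreads between mice of Cntnap5a (SD 0.69) and Cntn2 (SD 0.68) were high, and stood at percentiles 94.1 and 93.4.

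**Figure D1:**
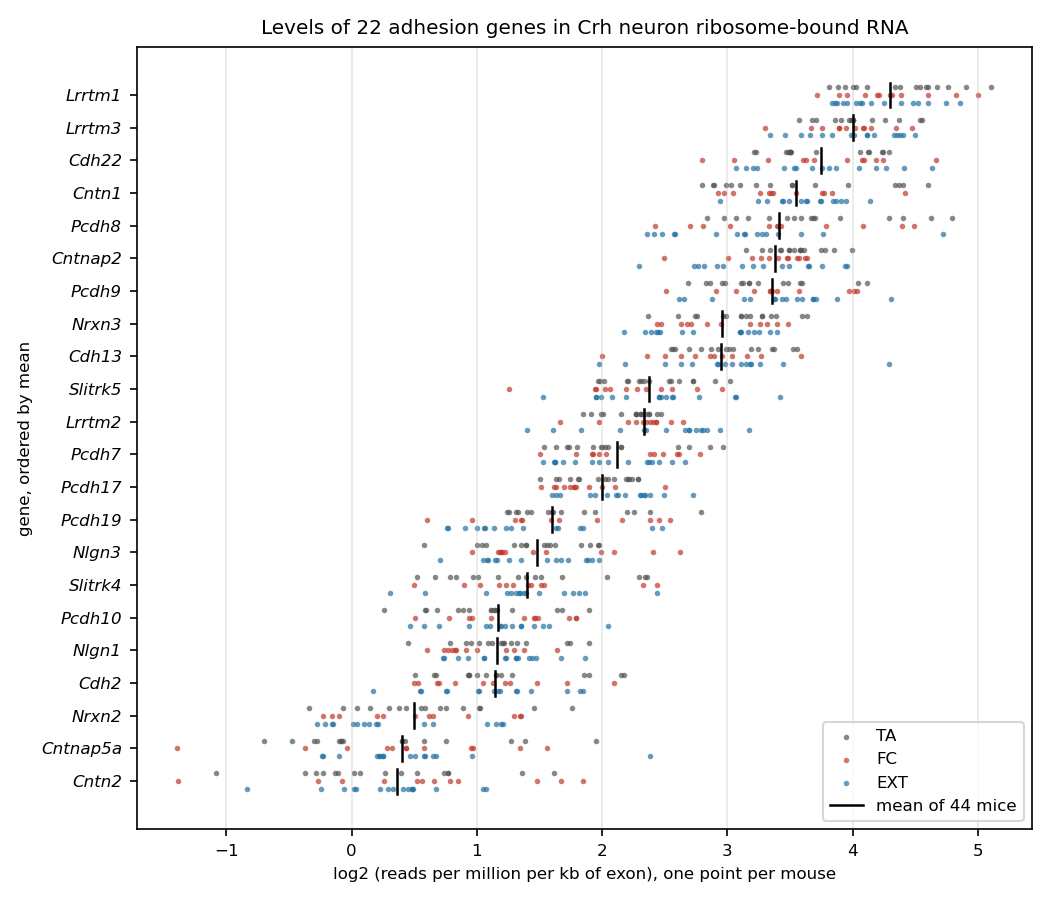
Levels of 22 adhesion genes per kilobase of exon (x axis, log2 of cpm per kb; y axis, genes ordered by mean), with 1 point for each mouse colored by group and a black bar for the mean of 44 mice. The means run from 4.30 for Lrrtm1 to 0.36 for Cntn2, and the points of TA, FC and EXT overlap in every gene.

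Batch, group and sex were each set alone against the members' variation. Batch explained a median of 37.8% of a member's variance over mice, group 3.71% and sex 2.99%, against 41.5%, 7.93% and 3.86% over all genes. These shares are not adjusted for the number of categories, which is larger for batch, so they cannot be ranked. They also overlap, since batches 3 and 4 held EXT mice alone and the sexes were uneven across batches. Batch was largest for Pcdh7, a delta-type protocadherin, at 59.3%. Its mean was 6.04 ± 0.18 in batch 1 (SD, n = 11) and 5.30 ± 0.29 in batch 2 (SD, n = 10). Group was largest for Pcdh17, at 15.2%, and Pcdh8, at 14.5%.

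The comparison of FC with TA asks what fear conditioning leaves in these neurons. Adhesion genes were mostly lower in FC: 18 of 23 estimates were below zero, where 51% of all genes were, and the median log2 fold change was -0.17 against -0.0041 over all genes. By limma with sex and batch in the model, 4 of 23 (17.4%) were lower at an unadjusted p under 0.05 and 0 were higher. Of all genes, 16.8% passed in either direction, 8.2% lower and 8.61% higher. The members' share in both directions was therefore near that of the table. At an FDR under 0.05 no member passed, and 0 of 8203 genes did, with 1379 at an unadjusted p under 0.05. With voom weights none of the 23 passed that FDR either.

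Among synaptic partners, the neuroligin gene Nlgn1 (chr3:25426215-26332460, minus strand), whose protein binds neurexins from the postsynaptic side of excitatory synapses, ran from 4.20 to 5.64 log2 cpm in TA with a median of 4.94. In FC it ran from 4.35 to 5.39 with a median of 4.62, and 8 of 12 FC mice lay below the TA median. The difference was -0.27 ± 0.11 (log2, SE; p = 0.0173, FDR-adjusted p = 0.208 by limma). It was below zero in each batch that held both groups, by -0.52, -0.18 and -0.12 in batches 1, 2 and 5.

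Nrxn3 (chr12:88722876-90334935, plus strand), a presynaptic receptor for neuroligins and LRRTM proteins, ran from 6.02 to 7.29 log2 cpm in TA with a median of 6.79. In FC it ran from 6.10 to 7.14 with a median of 6.55, so the groups overlapped fully. The difference was -0.22 ± 0.099 (log2, SE; p = 0.0322, FDR-adjusted p = 0.255 by limma). Nrxn2 gave -0.18 ± 0.17.

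Of the cadherins, Cdh13 (chr8:118283733-119324921, plus strand), which codes for a cadherin held by a lipid anchor and without a cytoplasmic tail, ran from 6.04 to 7.05 log2 cpm in TA with a median of 6.49. In FC it ran from 5.49 to 7.08 with a median of 6.37, and 3 FC mice lay below every TA mouse. The difference was -0.27 ± 0.11 (log2, SE; p = 0.0206, FDR-adjusted p = 0.224 by limma), with batch differences of -0.34, -0.25 and -0.24.

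Pcdh8 (chr14:79766775-79771312, minus strand), known as arcadlin, is a protocadherin whose RNA is induced by synaptic activity and whose protein takes N-cadherin off the membrane. In TA it ran from 5.02 to 6.98 log2 cpm with a median of 5.81. Its FC values lay between 4.60 and 6.67 (median 5.58), 8 of 12 below the TA median, and the groups overlapped. The FC group sat 0.35 lower on the log2 scale (estimate -0.35 ± 0.15, SE; p = 0.0309, FDR-adjusted p = 0.254 by limma). The batches differed: the difference was -0.72 in batch 1, 0.072 in batch 2 and -0.27 in batch 5.

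Taking all members by batch, 18, 17 and 15 of 23 were lower in FC than TA in batches 1, 2 and 5, where 48, 51.4 and 51.9% of all genes were. Lower in all 3 batches were 7 members, and 0 were higher in all 3. The share of all genes that did so was not counted, so these counts have no background. The other members ran from -0.24 ± 0.14 (Cntn1) to 0.14 ± 0.26 (Cntn2), and Pcdh10, Lrrtm2, Nlgn3 and Pcdh9 had positive estimates alongside Cntn2. Nlgn1 passed p under 0.05 in all 28 fits that left out 1 mouse. Cdh13 lost that call without FC mouse 43 (p = 0.0515) or 47 (p = 0.0569). Pcdh8 lost it in 6 fits, without TA mice 8 and 9 and FC mice 13, 16, 17 and 47, and Nrxn3 lost it in 9, without TA mice 4, 9, 35, 36 and 38 and FC mice 17, 43, 45 and 47, with p at most 0.0681. The count was 2 without TA mouse 9, FC mouse 17 or FC mouse 47, and 7 without FC mouse 19 or TA mouse 34. The share of all genes in these fits is not given, so these counts too have no background.

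The summed level of astrocyte markers ran from 664 to 2765 cpm in TA (median 1280) and from 940 to 2377 in FC (median 1898). These ranges overlapped, and neither their difference nor its part in the result was tested. With the log2 of that sum as a further covariate, chosen after the data were seen, 1 of 23 members passed (Pcdh8, -0.38, p = 0.0481), the median became -0.076, and Nlgn1 gave -0.11 (p = 0.346), beside 9.18% of all genes. With the choroid plexus sum as the covariate 4 passed, given without the share of all genes. With no batch term 0 of 23 passed, beside 6.73% of all genes. With batch as a number 3 passed (Nlgn1, Cntnap2 and Pcdh8), beside 10.4%. The sum of the central amygdala and GABA neuron markers had medians of 6715 cpm in TA and 5685 in FC, and its part in the result was not tested.

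**Figure D2:**
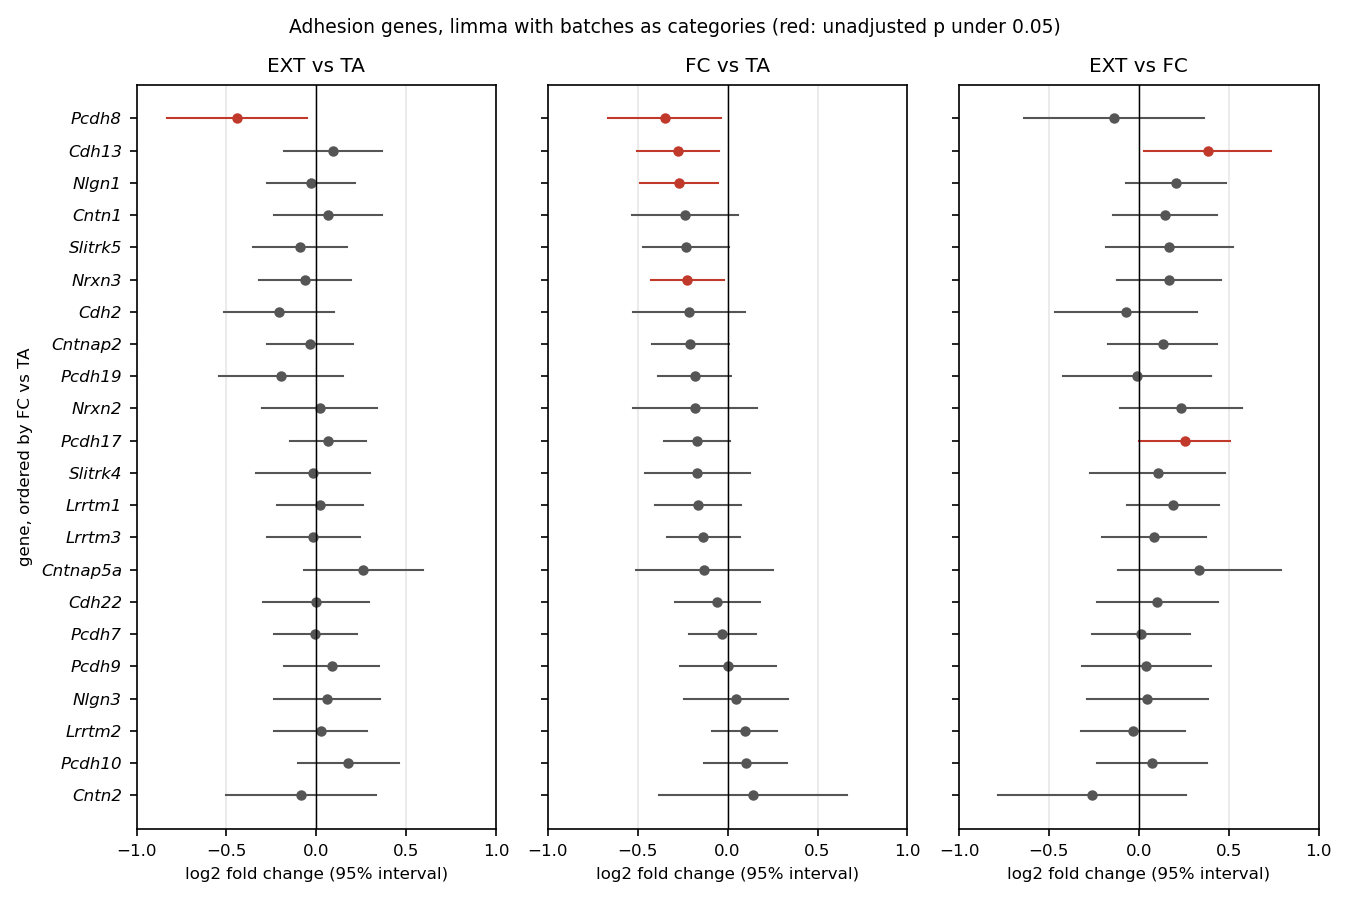
Log2 fold changes of 22 adhesion genes in EXT vs TA, FC vs TA and EXT vs FC (x axis, with 95% intervals; y axis, genes ordered by FC vs TA), from limma with sex and batch categories. Red marks an unadjusted p under 0.05, which held for Pcdh8 in EXT vs TA, for Pcdh8, Cdh13, Nlgn1 and Nrxn3 in FC vs TA, and for Cdh13 and Pcdh17 in EXT vs FC.

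EXT vs TA asks what differs after conditioning followed by extinction. Of 23 adhesion genes 1 (4.35%) passed an unadjusted p under 0.05, Pcdh8, while 21.1% of all genes did, 10.2% higher and 11% lower. The median member estimate was 8.9e-05 against 0.0073 over all genes, with 12 above zero and 11 below, where 48.5% of all genes were below. No member passed an FDR under 0.05 by limma, also with voom weights, and 2 of 8203 genes (0.0244%) did.

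Pcdh8 in EXT ran from 4.54 to 6.90 log2 cpm with a median of 5.32, below the TA median of 5.81 in 14 of 16 mice and below every TA mouse in 5. The estimate was -0.44 ± 0.19 (log2, SE; p = 0.0281, FDR-adjusted p = 0.187 by limma), with differences of -0.96, -0.52 and -0.15 in batches 1, 2 and 5. The call depended on single EXT mice. It was lost without mouse 26 (-0.23, p = 0.143), 24 (p = 0.0545), 52 (p = 0.055) or 60 (p = 0.0525). It was -0.44 to -0.46 with p of 0.0246 to 0.0281 with and without covariates for astrocyte, choroid plexus or mitochondrial transcript levels, chosen after the data were seen. With the log2 library size as a covariate it was -0.43 (p = 0.0844), beside 4.68% of all genes. The mitochondrial sum had medians of 885 cpm in TA and 3110 in EXT, with ranges of 112 to 4446 and 311 to 42617. The sum of the nuclear RNAs Malat1 and Meg3 had medians of 68.7 cpm in TA and 285 in EXT, with ranges of 18.0 to 546 and 23.1 to 3150. That of the central amygdala and GABA neuron markers had medians of 6715 and 5086. The part of these last sums in the result was not tested.

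The promoter of Pcdh8 is shown because Pcdh8 was the member lower in both comparisons with TA. It is set beside those of Pcdh10, a protocadherin that draws in actin regulators, and Pcdh9, because these hold the half-site of the CRE, the element bound by CREB, a factor that activity switches on. The stretches are RefSeq windows of GRCm38.p6 from 250 bases before to 50 after a start site. Capitals mark TGACG or its reverse complement CGTCA.
Pcdh8, chr14:79771263-79771562, minus strand: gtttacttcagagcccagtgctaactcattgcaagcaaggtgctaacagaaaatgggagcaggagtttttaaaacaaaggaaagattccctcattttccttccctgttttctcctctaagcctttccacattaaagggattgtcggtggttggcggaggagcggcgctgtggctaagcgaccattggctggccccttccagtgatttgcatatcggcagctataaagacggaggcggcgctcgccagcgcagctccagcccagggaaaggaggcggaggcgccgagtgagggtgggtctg
Pcdh10, chr3:45378148-45378447, plus strand: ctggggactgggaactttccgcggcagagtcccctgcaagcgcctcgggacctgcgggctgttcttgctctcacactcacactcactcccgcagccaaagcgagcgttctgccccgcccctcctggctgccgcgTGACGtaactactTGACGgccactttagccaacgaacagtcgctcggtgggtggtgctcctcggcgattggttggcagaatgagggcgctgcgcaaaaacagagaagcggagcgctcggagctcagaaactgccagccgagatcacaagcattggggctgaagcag
Pcdh9, chr14:93890630-93890929, minus strand: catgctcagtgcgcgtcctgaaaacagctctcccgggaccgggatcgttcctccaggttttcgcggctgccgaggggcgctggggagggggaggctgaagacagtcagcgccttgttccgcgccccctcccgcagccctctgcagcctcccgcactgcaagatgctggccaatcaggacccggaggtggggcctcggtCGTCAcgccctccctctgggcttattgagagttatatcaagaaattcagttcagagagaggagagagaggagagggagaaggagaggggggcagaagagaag

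The table of promoters held 22 windows for 15 of the 23 members. The half-site was in 4 of them (18.2%), from Pcdh10 (2 copies), Pcdh9 (1 copy in each of 2 overlapping windows) and Cntn1 (2 copies in 1 of its windows), in 33% of the 8472 promoters of genes in the table, and in 20.8% of 32851 promoters of all genes. The full palindrome, TGACG followed by TCA, which holds the half-site on both strands, was in 0 of 22, in 3.34% of the promoters of genes in the table and in 1.79% of all. The Pcdh8 window shown has no copy of these letters. Pcdh10 gave 0.18 ± 0.14, Pcdh9 0.084 ± 0.13 and Cntn1 0.066 ± 0.15 in EXT vs TA (log2, SE).

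The remaining members had intervals that hold under batch categories only and do not bound the change under another coding. The 95% interval of Lrrtm1 ran from -0.22 to 0.26, and that of Nlgn3, the neuroligin of both excitatory and inhibitory synapses, from -0.24 to 0.35. Slitrk5 ran from -0.35 to 0.17 and Cntn1 from -0.23 to 0.37. Cntnap5a had the highest estimate, 0.26 ± 0.16 (SE, p = 0.119 by limma, unadjusted), and Cdh2, which codes for N-cadherin, had -0.21 ± 0.15 (p = 0.176).

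Across the cleft, Lrrtm1 (chr6:77242689-77257791, plus strand) ran from 5.41 to 6.71 log2 cpm in TA (median 6.04), from 5.31 to 6.60 in FC (median 5.85) and from 5.44 to 6.46 in EXT (median 5.71). Lrrtm3 (chr10:63928472-64090277, minus strand) had medians of 6.09, 6.07 and 6.15 in TA, FC and EXT. Neither gene separated the groups, and the estimate of Lrrtm1 with batch in the model was 0.021 ± 0.12 (SE). Nrxn2 (chr19:6418731-6544169, plus strand) had medians of 4.36, 4.35 and 3.96 and ranges that overlapped fully. Nlgn3 (chrX:101299168-101325963, plus strand) had medians of 4.68, 4.55 and 4.67.

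Slitrk5 (chr14:111675097-111683141, plus strand), whose protein binds the receptor phosphatase PTPRD, lay between 4.36 and 5.41 log2 cpm in TA (median 4.75), 3.65 and 5.36 in FC (4.63) and 3.92 and 5.82 in EXT (4.86). Its FC vs TA estimate was -0.23 ± 0.12 (SE, p = 0.0561 by limma, unadjusted). Cntn1 (chr15:92051165-92341967, plus strand), the contactin of the paranode and of many axons, had medians of 6.66, 6.60 and 6.87 in TA, FC and EXT. Cdh22 (chr2:165111507-165234853, minus strand), a classical cadherin of the brain, had medians of 5.40, 5.72 and 5.60, and its EXT vs TA interval was -0.29 to 0.29. Group ranges overlapped in each of these genes.

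The members of lowest level spread widest. Cntn2 (chr1:132509427-132543256, minus strand) lay between 2.14 and 4.83 log2 cpm in TA (median 3.39), 1.83 and 5.07 in FC (3.83) and 2.38 and 4.29 in EXT (3.59), from as few as 57 reads in a library. Cntnap5a (chr1:115684756-116587323, plus strand) lay between 2.75 and 5.41 in TA (median 3.62), 2.06 and 5.01 in FC (3.89) and 3.22 and 5.83 in EXT (3.81). Of the other protocadherins, Pcdh7 had medians of 5.42, 5.61 and 5.42, Pcdh9 of 5.94, 6.11 and 6.22 and Pcdh10 of 5.10, 5.41 and 5.20 in TA, FC and EXT. Pcdh19 had medians of 4.99, 5.01 and 4.64, and 8 of 16 EXT mice lay below every TA mouse. Its EXT vs TA estimate was -0.20 ± 0.17 (SE, p = 0.257 by limma, unadjusted) and -0.33 ± 0.17 (p = 0.0571) with batch as a number, with differences of -0.71, -0.33 and 0.12 in batches 1, 2 and 5. Lrrtm2 had medians of 4.88, 4.96 and 5.27, and 10 of 16 EXT mice lay above every TA mouse while 3 lay below every TA mouse. Its EXT vs TA estimate was 0.023 ± 0.13 (SE), or 0.24 ± 0.13 (p = 0.0743 by limma, unadjusted) with batch as a number, and its mean was 5.41 in batch 3, which held EXT mice alone, against 4.77 to 4.94 in batches 1, 2 and 5. In FC vs TA it was 0.094 ± 0.088. Slitrk4 had medians of 4.49, 4.47 and 4.49.

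The batches did not share a direction in EXT vs TA. Estimates were below zero for 14 of 23 members in batch 1 (2 EXT and 4 TA mice), for 18 in batch 2 (3 and 5) and for 3 in batch 5 (5 and 7). The batch medians were -0.22, -0.15 and 0.17, where those of all genes were 0.027, -0.027 and 0.0018. Lower in all 3 batches were 2 members and higher in all 3 were 4, again without a count over all genes.

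The coding of batch changed this comparison. The batch number as a numeric covariate fits a straight line over labels that are names, and lets batches 3 and 4 contribute. A departure from that line of these batches, which held EXT mice alone, cannot be told apart from extinction. With this coding 2 of 23 members passed an unadjusted p under 0.05 beside 37.8% of all genes. Pcdh8 then gave -0.53 ± 0.18 (FDR-adjusted p = 0.0312), beside 21.4% of all genes at that FDR. Cntnap2 (chr6:45059357-47304213, plus strand), which codes for the caspr protein that clusters potassium channels beside the node, gave -0.30 ± 0.13 (p = 0.0288, FDR-adjusted p = 0.0923), against -0.034 ± 0.12 with batch categories. In TA it ran from 6.51 to 7.35 log2 cpm with a median of 6.91. In EXT the values lay between 5.65 and 7.31 (median 6.60), with 7 of 16 EXT mice below every TA mouse.

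**Figure D3:**
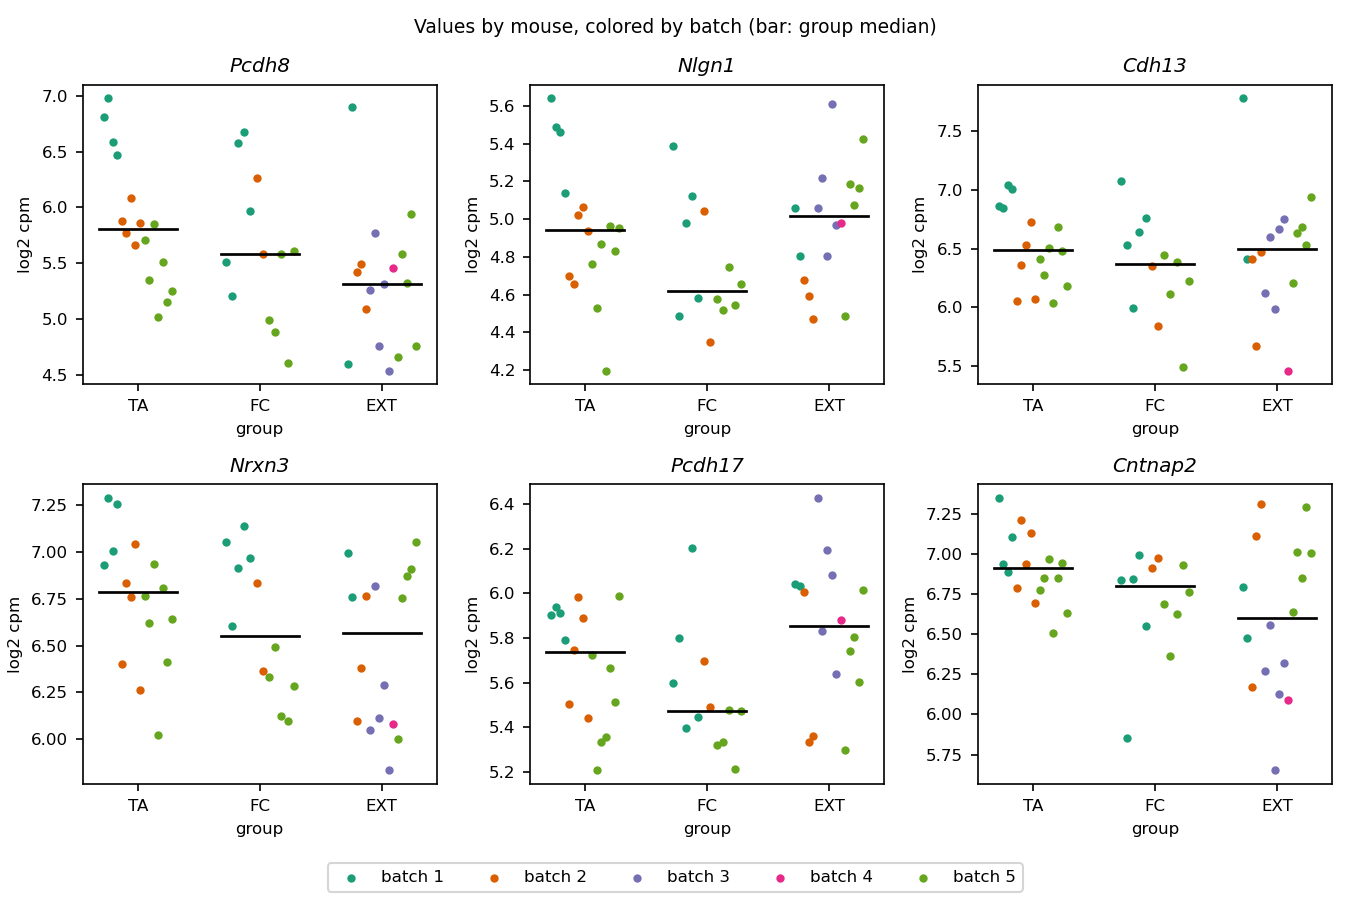
Log2 cpm (y axis) of 6 adhesion genes in each mouse of TA, FC and EXT (x axis), colored by batch, with a bar at the group median. Batches 3 and 4 hold EXT mice alone, and for Cntnap2 their 6 mice lie between 5.65 and 6.56 log2 cpm, whereas the EXT median over all batches is 6.60.

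**Figure D4:**
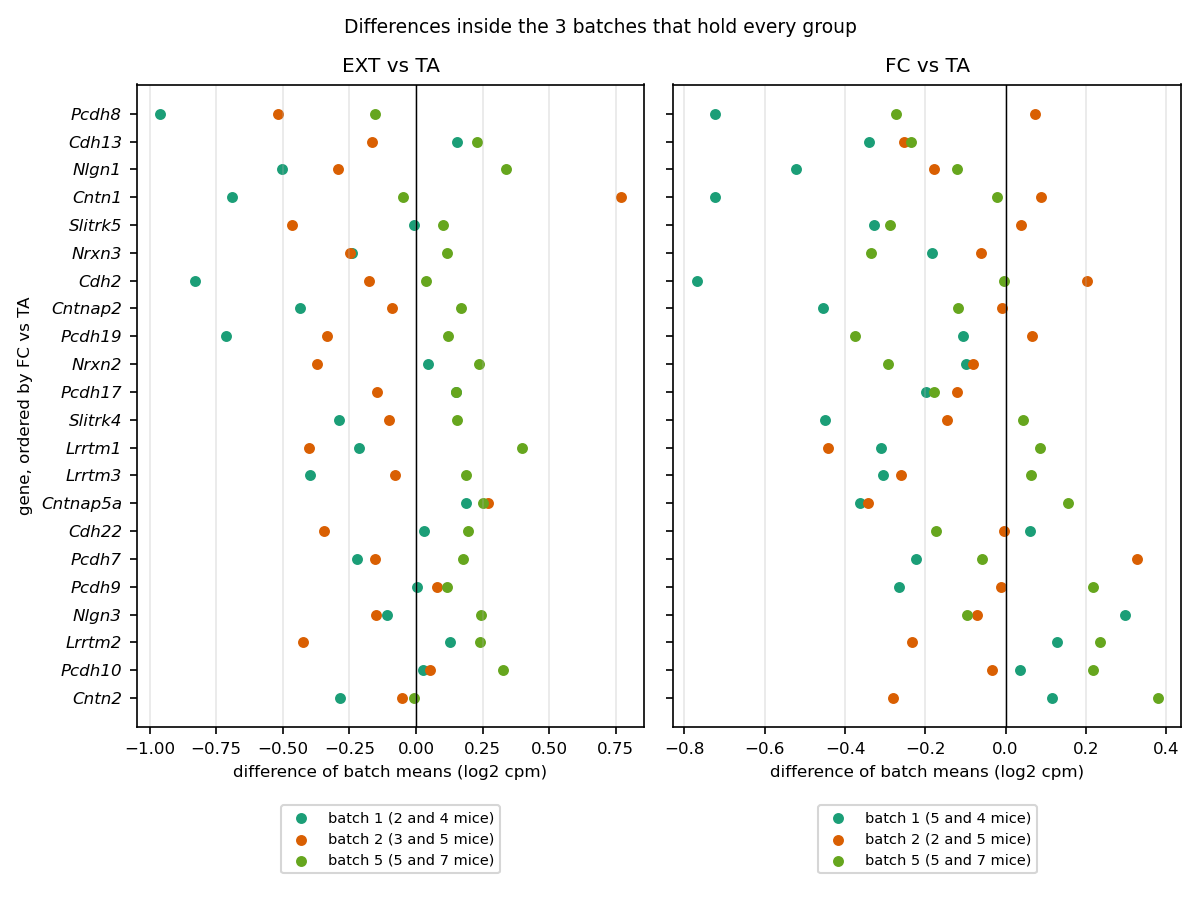
Differences between batch means (x axis, log2 cpm) of 22 adhesion genes (y axis) for EXT vs TA and FC vs TA, 1 color a batch. In EXT vs TA the points of batch 5 lie mostly right of zero, and those of batches 1 and 2 mostly left. Over all 23 members 3 were below zero in batch 5, 14 in batch 1 and 18 in batch 2. In FC vs TA most points of each batch lie left of zero.

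EXT vs FC compares mice on the second day with mice on the first. With batch categories 18 of 23 estimates were above zero with a median of 0.10, against 0.011 over all genes, of which 46.8% were below zero. This direction depended on the coding and the batch. With batch as a number 13 of 23 were above zero and the median was 0.0091. Within batches 1, 2 and 5 the medians were 0.021, -0.077 and 0.24, with 9, 13 and 3 of 23 below zero. In females 17 of 23 were below zero with a median of -0.17, and in males 3 were, with a median of 0.20. These female estimates rest on the EXT females of batches 1 and 5 (2 and 1). The male ones rest on the EXT males of batches 2 and 5 (2 and 4), so sex and batch cannot be fully told apart. Over both sexes 2 of 23 were higher by limma at an unadjusted p under 0.05 (8.7%) and 0 were lower, where 4.19% of all genes passed, 2.22% higher and 1.97% lower. No member and no gene of the table passed an FDR under 0.05, with 344 genes at an unadjusted p under 0.05. FC is shared with the FC vs TA comparison, so the 2 sets of estimates are not independent.

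Cdh13 in EXT ran from 5.46 to 7.78 log2 cpm with a median of 6.50, overlapping FC, and 11 of 16 mice were above the FC median of 6.37. Its estimate was 0.38 ± 0.17 (log2, SE; p = 0.0353, FDR-adjusted p = 0.975 by limma), with differences of 0.50, 0.088 and 0.46 in batches 1, 2 and 5. Without EXT mouse 26 it was 0.24 (p = 0.16). It also missed the threshold, with p of 0.0512 to 0.08, without EXT mice 52, 57, 58 and 60 or FC mice 13, 18, 43 and 47.

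Pcdh17 (chr14:84443563-84539002, plus strand), a protocadherin known for sorting synapses within basal ganglia circuits, lay between 5.21 and 6.20 log2 cpm in FC (median 5.47), where 10 of 12 mice were below the TA median of 5.74. Its EXT values lay between 5.30 and 6.43 (median 5.86), and 13 of 16 mice were above the FC median, with overlap between the groups. The estimate for EXT vs FC was 0.25 ± 0.12 (log2, SE; p = 0.048, FDR-adjusted p = 0.975 by limma), and it was 0.32 ± 0.12 (p = 0.0112) with batch as a number. Its p stayed under 0.05 in 10 of 28 fits that left out 1 mouse. With 1 mouse left out the count of passing members was 0 or 1 in 18 of 28 fits and 4 without FC mouse 42. These counts are given without the share of all genes. With batch as a number only Pcdh17 passed, beside 19.3% of all genes.

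The sexes were then set apart for EXT vs TA, on the labels. In females (6 EXT, 6 TA) 5 of 23 members were lower at an unadjusted p under 0.05 by limma, where 13.8% of all genes passed (5.62% lower), and 17 of 23 estimates were below zero with a median of -0.25. In males (10 EXT, 10 TA) 1 was higher, where 12.5% of all genes passed, and 20 of 23 were above zero with a median of 0.15. With batch categories the female estimates rest on 4 EXT females (2 of batch 1) and the male ones on 6 EXT males of batches 2 and 5, so sex and batch cannot be fully told apart.

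Lrrtm3, which codes for a postsynaptic ligand of neurexins, had a TA median of 6.40 in females (5.80 to 6.64 log2 cpm) and an EXT median of 5.96 (5.54 to 6.20). In males the medians were 6.07 in TA (5.66 to 6.24) and 6.34 in EXT (5.43 to 6.58). The estimate was -0.47 ± 0.17 in females and 0.25 ± 0.15 in males, and the interaction was 0.57 ± 0.21 (male minus female, log2, SE; p = 0.0105, FDR-adjusted p = 0.706 by limma).

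Cdh2 had medians of 4.54 in TA females and 3.89 in EXT females, and of 3.98 in TA males and 4.19 in EXT males (log2 cpm). The estimate was -0.73 ± 0.25 in females and 0.11 ± 0.15 in males, and the interaction 0.58 ± 0.26 (p = 0.0305, FDR-adjusted p = 0.771 by limma). Lower in EXT females too were Pcdh8 (-0.87 ± 0.37), Cntnap2 (-0.39 ± 0.16) and Nlgn1 (-0.35 ± 0.16), with FDR-adjusted p of 0.346 to 0.362 by limma over the 5. Cntnap2 was 0.24 ± 0.12 in males (p = 0.0495, FDR-adjusted p = 0.396 by limma), and its interaction did not pass (p = 0.199).

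Of 23 interactions 2 passed an unadjusted p under 0.05, where 6.02% of all genes did. The median was 0.27 against -0.029 over all genes, with 19 of 23 above zero. In FC vs TA 4 of 23 members were lower in females, Pcdh8 (-0.72 ± 0.25), Nlgn1 (-0.38 ± 0.16), Slitrk5 (-0.37 ± 0.17) and Cdh2 (-0.60 ± 0.27), where 14.8% of all genes passed and 6.6% passed lower. In males 1 was lower, Cdh13 (-0.32 ± 0.15), beside 13.1%, and 1 interaction passed, Cdh2 (0.62 ± 0.28), beside 9.62%. In EXT vs FC 2 were higher in males, Cntn1 (0.42 ± 0.13) and Nrxn3 (0.45 ± 0.15), beside 8.79%, 0 passed in females, beside 1.43%, and 1 interaction passed, Cntn1 (0.54 ± 0.24), beside 4.16%. For EXT vs TA without batches 3 and 4 the interaction count was 7, beside 14.5% of all genes, and the median 0.41.

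**Figure D5:**
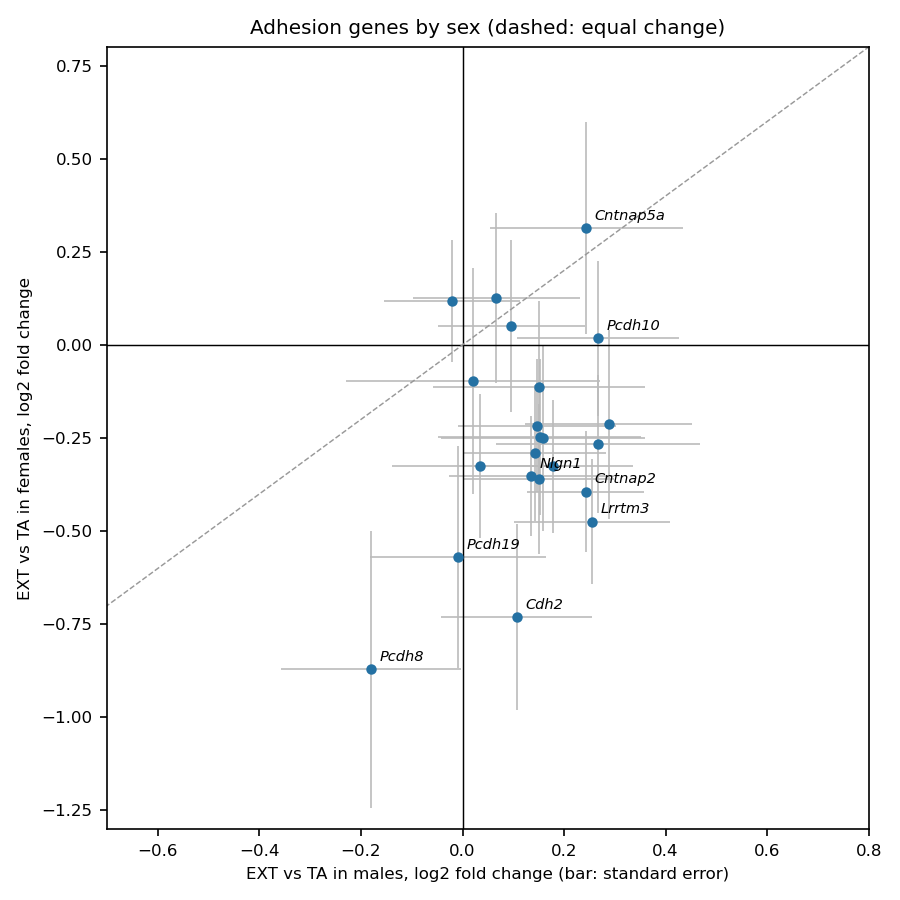
EXT vs TA log2 fold changes of 22 adhesion genes in males (x axis) and females (y axis), with bars of 1 standard error and a dashed line of equal change. Most genes lie right of zero in males (20 of all 23 members did) and below zero in females (17 of 23). Pcdh8 is lowest, at -0.18 in males and -0.87 in females.

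Members varied together over mice. Deviations from the mean of each batch and group were correlated over the 39 mice in 8 batch-by-group sets of at least 3. The median Pearson's r over 253 pairs was 0.27, against -0.0054 over the 33640503 pairs of all genes, and 229 pairs were above zero. By permutation within sets (100000 resamples, two-sided, Benjamini-Hochberg over 253 pairs), 49 pairs were positive and 0 negative at an adjusted p under 0.05, and 36 of them passed by Spearman's rho too. All points of a gene pair share libraries, depth and composition. Sex was not removed from the deviations, and the sets held both sexes. The part of these in the values was not tested.

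The closest were Pcdh7 and Pcdh19, both delta-type protocadherins, with r of 0.76 and rho of 0.79 (permutation p = 1e-05 for both, the smallest these resamples give; adjusted p = 0.000843 and 0.00169), and r of 0.73 without the 2 mice farthest from the median. It was 0.66, 0.71 and 0.80 within batches 1, 2 and 5 (n = 9, 8 and 17). Pcdh8 and Pcdh19 gave r of 0.69 and rho of 0.67 (permutation p = 3e-05 and 0.00011; adjusted p = 0.00152 and 0.00542), r of 0.61 without the 2 mice, and 0.66, 0.60 and 0.71 within those batches.

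Cdh2 and Pcdh8, whose proteins bind each other, gave r of 0.76 and rho of 0.70 (permutation p = 0.00013 and 0.00026; adjusted p = 0.00358 and 0.00548), and r of 0.71 without the 2 mice. This did not hold within each batch: r was 0.94 in batch 1, -0.81 in batch 2 and 0.69 in batch 5. Nrxn3 had the highest median r with the other members, 0.46, and Pcdh19 the lowest, 0.11.

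Some members tracked marker lists in the same deviations, over 184 pairs of a member and a list (permutation, 100000 resamples, Benjamini-Hochberg). Cntn2, which codes for the contactin of the juxtaparanode and is made by oligodendrocytes as well as neurons, followed the oligodendrocyte sum with r of 0.81 and rho of 0.80 (permutation p = 1e-05 for both; adjusted p = 0.00184 for both), with r of 0.75 without the 2 farthest mice. Its level therefore moved with that of oligodendrocyte transcripts, and the part of these in its groups was not tested. The central amygdala and GABA neuron sum was followed by Nrxn3 (r = 0.65, adjusted permutation p = 0.0106), Cntnap2 (0.60, 0.0355), Lrrtm3 (0.58, 0.0355) and Cdh13 (0.57, 0.0444). Their rho were 0.61, 0.55, 0.58 and 0.61 (adjusted permutation p = 0.0196, 0.0395, 0.0196 and 0.0196), and their r without the 2 farthest mice 0.61, 0.49, 0.55 and 0.65. Cntn2 also followed the sum of the list for oligodendrocyte precursors (r = 0.75, rho = 0.74, adjusted permutation p = 0.00184 for both, r = 0.75 without the 2 mice). That sum held 3 of 6 markers, Olig1, Olig2 and Sox10, while Pdgfra, Cspg4 and Vcan were not measured. It therefore does not single out precursors. By r but not by rho, the threshold was passed by Pcdh9 with oligodendrocytes (r = 0.52, rho = 0.51, adjusted permutation p = 0.0389 and 0.0718, r = 0.39 without the 2 mice), Pcdh7 with choroid plexus (r = -0.52, rho = -0.49, adjusted permutation p = 0.0458 and 0.0882, r = -0.53) and Nlgn3 with mitochondrial transcripts (r = -0.46, rho = -0.45, adjusted permutation p = 0.0458 and 0.103, r = -0.54). No member followed the astrocyte sum at an adjusted p under 0.05, with r from -0.40 to 0.36.

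Many members were long genes, a feature the rule did not use, though others were short, such as Pcdh8 (4.5 kb) and Lrrtm2 (6.0 kb). Their median span was 125 kb against 24.9 kb over 8023 annotated genes. Of the members 7 (30.4%) spanned over 500 kb, from Pcdh9 at 877 kb to Cntnap2 at 2245 kb, as did 114 annotated genes (1.42%). In FC vs TA the median of the 7 was -0.21 and that of the 16 shorter members -0.17, and 78 of the 114 long genes (68.4%) were below zero with a median of -0.077. The 500 kb limit was chosen after the data were seen.

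Partners of these proteins were counted from 6 lists, 67 of whose 101 genes were measured. In FC vs TA 19 of 67 (28.4%) were lower at an unadjusted p under 0.05 by limma and 0 higher, beside 8.2% of all genes lower, with FDR-adjusted p from 0.0904. Of the other adhesion list, 5 of 18 were lower. Tenm1, a teneurin that binds latrophilins across the cleft, gave -0.56 ± 0.12 (p = 6.95e-05, FDR-adjusted p = 0.0904), Chl1 -0.36 ± 0.13 and L1cam -0.42 ± 0.17. Of the cadherin partners, 4 of 8 were lower: Jup (-0.35 ± 0.12), Ctnna2 (-0.24 ± 0.088), Ctnnb1 (-0.26 ± 0.094) and Arvcf (-0.23 ± 0.11), which link cadherins to the cytoskeleton. The intracellular list had 3 of 20 lower, led by the scaffold gene Dlg3 (-0.48 ± 0.12). The receptor phosphatases and ligands had 3 of 8 (Lrfn5 -0.29 ± 0.099, Ptprf -0.32 ± 0.14, Ptprs -0.27 ± 0.12), the neurexin ligands 3 of 7 (Clstn3, Clstn1 and Dag1) and the shedding enzymes 1 of 6 (Ncstn). With batch as a number 8 partners were lower, beside 6.18% of all genes.

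In EXT vs TA 15 of 67 partners (22.4%) passed, 6 higher and 9 lower, where 21.1% of all genes did. The scaffold genes did not share a direction: Dlg3 was -0.57 ± 0.16 while Dlg4 was 0.49 ± 0.18, Shank1 0.46 ± 0.18 and Shank2 0.27 ± 0.11, with Epb41l3, the adaptor of the caspr proteins, at -0.29 ± 0.096. Cadherin partners were lower in 4 of 8, with Ctnna2 at -0.30 ± 0.10 and Ctnnb1 at -0.36 ± 0.13. Higher were Adgrl1, a latrophilin that binds neurexins and teneurins (0.43 ± 0.13), and the gamma-secretase genes Aph1a (0.40 ± 0.11) and Psenen (0.24 ± 0.090). FDR-adjusted p was at least 0.143 by limma. With batch as a number 28 passed, 16 higher and 12 lower, beside 37.8% of all genes, and 12 of 67 passed an FDR under 0.05, beside 21.4% of all genes. In EXT vs FC 7 of 67 passed (10.4%), beside 4.19% of all genes, and 6 were higher, beside 2.22%, among them Adgrl1 (0.45 ± 0.15), Tenm1 (0.45 ± 0.17) and Epb41l1 (0.53 ± 0.20), and Nxph1, a neurexin ligand, lower (-0.46 ± 0.22).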

How the data were processed

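Ribosome-bound RNA of CeA Crh neurons was sequenced from 44 mice (16 TA, 12 FC, 16 EXT). Per the submitters' notes and methods, the authors used Trimmomatic 0.36 for trimming, STAR and GRCm38 for alignment, and per-gene counting, then dropped low genes by a cpm minimum required in every sample and left out outlying samples. The deposited unit is log2 cpm after voom, with 0.5 added to each read count. Some columns, headed by animal numbers, are recorded as other units for naming reasons alone, and what the authors deposited there is the same log2 cpm. Whole reads were solved back from 360932 of 360932 values within 0.01 of a whole number.

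Groups, sexes and batches came from the labels. The 8203 genes were fitted with limma 3.58.1 in R 4.3.3 (lmFit, eBayes, two-sided, Benjamini-Hochberg), with sex and batch categories, for each pair of groups. A gene counted as passing at an unadjusted p under 0.05, and counts at an FDR under 0.05 are beside it. The study's text does not state how batch was coded. The fit was checked on simulated reads before use. Lengths are of GENCODE 21 genes, and promoters are of RefSeq. Correlations used Python 3.11.15, numpy 2.4.6 and scipy 1.17.1.

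The members, the lists and the rule on genes to describe (those passing in any comparison under either batch coding, the 3 highest and 3 lowest per length, and the smallest EXT vs TA p of each family, with up to 4 partners a list) were chosen with earlier results of these data known. Alternatives were batch as a number, no batch term, without batches 3 and 4, all groups together, a mean log2 minimum of 5, quantile or median scaling, an offset of 5 reads, robust eBayes, array or voom weights, library size, no sex term and each mouse left out, plus 3 marker covariates chosen after the data were seen. The values of 1 member are not reported here and are left out of the plots, while counts and medians cover all 23.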

Additional observations from a re-analysis of the deposited data

Results flagged for a closer look

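Mice were compared with the others of their condition and sex in 138 groups of 6 to 10, and Dixon's ratio at the 95% level picked out 11 members' values, while chance picks out about 1 in 20 groups. Batch was not taken into account. EXT female mouse 26 of batch 1 was far above the other EXT females in Cdh13 (7.78 log2 cpm, group median 6.51) and in Cntnap5a (5.83, median 3.81). FC male mouse 49 of batch 1 was far above the other FC males in Nlgn3 (5.83, median 4.42) and Pcdh19 (5.84, median 4.86). It was the 1 FC male of batch 1, whose mean over all groups was 5.62 ± 0.49 for Pcdh19 (SD, n = 11), against 4.86 and 4.80 in batches 2 and 5, and 5.09 ± 0.42 for Nlgn3, against 4.48 and 4.60. EXT male mouse 51 of batch 2 was far below the other EXT males in Lrrtm2 (4.20, median 5.33) and Slitrk4 (3.44, median 4.49). The rest were single values. TA female mouse 8 was high in Cntnap2 (7.35, median 6.87) and TA male mouse 35 in Cntnap5a (5.41, median 3.62). Mouse 35 was the 1 TA male of batch 1, where Cntnap5a averaged 4.66 ± 0.60 (SD, n = 11), against 3.27 and 3.67 in batches 2 and 5. FC female mouse 16 was low in Lrrtm2 (4.25, median 4.97), TA male mouse 37 in Nlgn1 (4.20, median 4.94) and FC male mouse 43 in Pcdh9 (5.27, median 6.04).

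Effects differed between the sexes in 4 of 69 interaction tests (23 members, 3 comparisons) at an unadjusted p under 0.05 by limma, with no FDR-adjusted p under 0.05. Male minus female, on the log2 scale, these were Lrrtm3 in EXT vs TA (0.57 ± 0.21, SE, p = 0.0105, FDR-adjusted p = 0.706), Cdh2 in EXT vs TA (0.58 ± 0.26, p = 0.0305, FDR-adjusted p = 0.771), Cdh2 in FC vs TA (0.62 ± 0.28, p = 0.0382, FDR-adjusted p = 0.494) and Cntn1 in EXT vs FC (0.54 ± 0.24, p = 0.0322, FDR-adjusted p = 0.999).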

How the results depend on the processing

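No paired analysis was possible because the labels give no replicate numbers that groups share. In 16 alternatives each, the FC vs TA median stayed below zero in all 16 (-0.17 to -0.076) the EXT vs TA median was below zero in 6 (-0.039 to 0.049) and the EXT vs FC median in 1 (-0.0027 to 0.18). The count of members at an unadjusted p under 0.05 stayed within 1.5 times in 12 of 16 for EXT vs TA, 13 of 16 for FC vs TA and 10 of 16 for EXT vs FC. Against 1 in EXT vs TA, it was 2 with batch as a number and with no batch term, and 0 with array weights and with library size as a covariate, which left 4.68% of all genes. Against 4 in FC vs TA, it was 0 with no batch term, 2 with all 3 groups fitted together and 1 with the astrocyte covariate. Against 2 in EXT vs FC, it was 1 with batch as a number, no batch term, quantile scaling, voom weights, library size or the astrocyte covariate. Partners moved from 15 to 28 in EXT vs TA with batch as a number and with no batch term, from 19 to 8 and 4 in FC vs TA, and from 7 to 15 and 13 in EXT vs FC. The share of all genes moved too with batch as a number. It went from 21.1 to 37.8% in EXT vs TA, from 16.8 to 10.4% in FC vs TA and from 4.19 to 19.3% in EXT vs FC. Most other counts in this paragraph lack that share, so they cannot be told apart from shifts of the whole table. With no batch term the males' count was 2 and the females' 3, and without batches 3 and 4 the sex interaction count was 7. Leaving out 1 mouse gave 0 to 2 in EXT vs TA, 2 to 7 in FC vs TA and 0 to 4 in EXT vs FC.

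For single genes that changed sign, the cause was not tested. In EXT vs TA, Nlgn1 became 0.033 with batch as a number, 0.022 with no batch term and 0.049 with array weights, Cdh13 -0.038 with batch as a number and -0.049 with no batch term, Cntnap2 0.059 with array weights and 0.033 with the mitochondrial covariate, and Nrxn3 0.0033 with the mitochondrial covariate. In EXT vs FC, Cntnap2 became -0.12 with batch as a number and -0.11 with no batch term, Nrxn3 -0.081 and -0.11, and Pcdh8 0.014 with library size and 0.13 with the astrocyte covariate. With 1 mouse left out, EXT vs TA ran from -0.010 to 0.18 for Cdh13, from -0.083 to 0.048 for Cntnap2 and from -0.091 to 0.029 for Nlgn1, and EXT vs FC from -0.34 to 0.081 for Pcdh8.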
